A study of Homo sapiens with 3 samples.

Results

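Replicative senescence is the state that cultured human cells enter after repeated passage. It is described here for the fibroblast line IMR-90 ER:Ras as 1 RS array set against 1 array of growing cells, which are 2 of the 3 arrays of the series. The 2 arrays were chosen by their labels, and no measured value entered that choice. IMR-90 is an established line of human lung fibroblasts, and the name ER:Ras stands for a Ras protein fused to the ligand-binding domain of the estrogen receptor, which 4-hydroxytamoxifen (4-OHT) switches on. All 3 cultures carry it. The growing cells had no treatment, and the RS cells were passaged repeatedly for 10 weeks. The third culture, in oncogene-induced senescence (OIS), had 100 nM 4-OHT for 6 days. It is given beside RS for some genes and shares with RS the growing array as its control. All cells were kept in Dulbecco's modified Eagle's medium with 10% heat-inactivated fetal bovine serum, and biotin-labelled cRNA was made from 250 ng of total RNA.

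A senescent cell stays alive and metabolically active but no longer divides. As a population of fibroblasts is passaged, its telomeres shorten with each division until the DNA damage response and the retinoblastoma pathway hold the cell cycle. Senescent fibroblasts are also known for loss of lamin B1, for a large and spread shape with many actin stress fibres, and for secretion of proteins that act on neighbouring cells.

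Each condition had 1 array, so differences between RS and growing cells are given by their size and without a test, and the number of arrays limits their precision. The values are linear MAS5 signals, with 45.5, the median over all 3 arrays, as a floor for lower signals. A gene was read from its brightest probe set, and 12980 of 19775 genes (65.6%) exceeded that floor in growing cells, in RS or in both and are called measured. Of these 11616 were above it on both arrays and 1364 on 1, and for the latter a fold is a lower bound, written "at least". The arrays were alike in scale, with a median signal of 46.2 in growing cells and 44.9 in RS and with 50.3% and 49.8% of 54613 probe sets above the floor. The median log2 ratio of RS over growing cells was -0.01 over all measured genes. Repeat readings came from other probe sets of the same gene on the same arrays, and the log2 ratio of 1 probe set had an SD of 0.33 over 6529 genes, which covers probe error and not differences between cultures.

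Fibroblast markers were high on both arrays. The 18 fibroblast markers with a probe set had a summed signal of 245972 in growing cells and 268281 in RS, and 1 of them, MEOX2, was below the floor on all 3 arrays. COL1A1, the main chain of type I collagen, had a signal of 33451 in growing cells against 34357 in RS (1.03-fold higher). PDGFRA, a platelet-derived growth factor receptor of fibroblasts, was 1.03-fold higher. Defining markers of other cell types were below the floor on all 3 arrays, among them PTPRC of blood cells, CDH5 and KDR of endothelium, CDH1 of epithelium, RBFOX3 and GFAP of neural tissue, ADIPOQ of fat cells, and MYOD1 and MYOG of skeletal muscle. The 11 endothelial markers had a summed signal of 1502.5 in growing cells and 2260.9 in RS with 7 of them below the floor on all 3 arrays, the 12 blood cell markers 657 and 569 with 5 below it, and the 9 fat cell markers 1033.4 and 765 with 6 below it. Smooth muscle, skeletal muscle, epithelial and neural markers are given further below, beside related genes.

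In RS, 751 genes (5.79% of those measured) were at least 2-fold lower than in growing cells and 501 (3.86%) at least 2-fold higher. These shares are the background for the 2-fold counts of each list below. At 3-fold there were 317 lower genes (2.44%) and 147 higher ones (1.13%). At 4-fold the numbers were 169 (1.3%) and 74 (0.57%). The lower genes were led by those of mitosis and DNA replication, together with the matrix protein periostin, the transcription factor SOX11, lamin B1 and the integrin subunit ITGB8. The higher genes were led by a mixed set that included the muscle genes ANKRD1, ACTC1 and SYNPO2, cyclin D2, the teneurin TENM1 and the endothelin gene EDN1.

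**Figure D1:**
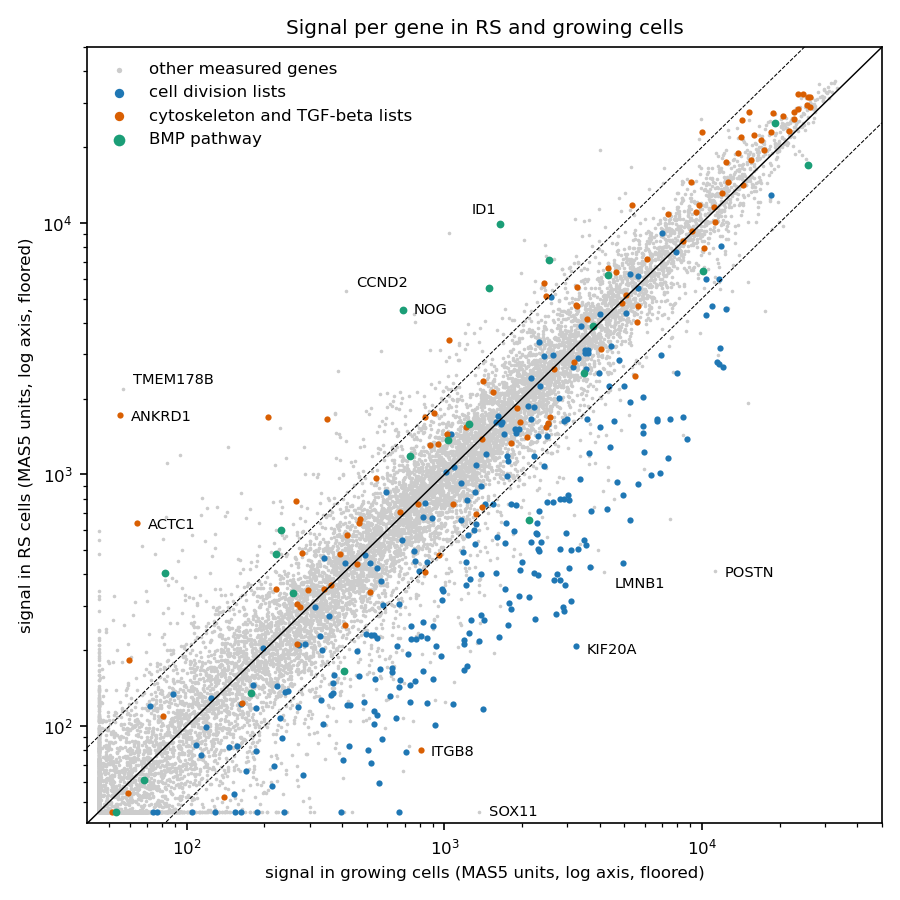
Signal of each measured gene in RS cells (vertical) against growing cells (horizontal), both in MAS5 units on log axes with values below the floor of 45.5 set to it. Each point is 1 gene on 1 array a side, the solid line marks equal signal and the dashed lines mark 2-fold. Most points of the cell division lists (blue) lie below the lower dashed line, whereas ANKRD1, ACTC1, NOG and ID1 lie above the upper one.

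The genes that carry a cell through mitosis had the most uniform difference. Of 25 measured mitotic cyclins, kinases and phosphatases, 24 were at least 2-fold lower in RS and none higher, with a median log2 ratio of -2.28. The exception was CDC25A, a phosphatase that activates cyclin-dependent kinases at the start of S phase, with 240 in growing cells against 136.5 in RS (1.76-fold lower). Since RNA of whole cultures was measured, fewer cells in the cycle and less mRNA per cycling cell cannot be told apart. CCNB1 encodes cyclin B1, the partner of CDK1 at entry into mitosis, and its signal was 8749 in growing cells, 1388 in RS and 1412 in OIS (6.30-fold lower in RS). CDK1 itself had 5886 in growing cells against 1552 in RS (3.79-fold lower). Cyclin A2 (CCNA2) was 5.16-fold lower. The centrosome kinase NEK2 had the lowest ratio of the list, with 3093 in growing cells against 314 in RS (9.84-fold lower). PLK4, which starts centriole duplication, was 8.90-fold lower and the checkpoint kinase BUB1 was 8.38-fold lower. AURKB, the kinase of the chromosomal passenger complex, was 5.10-fold lower and AURKA, which acts at spindle poles, 2.72-fold lower. The other probe set of AURKB gave a log2 ratio of -0.53. The WEE1 kinase, which restrains CDK1, was lower as well, at 2425 in growing cells against 1075 in RS (2.26-fold lower).

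Kinetochore and spindle checkpoint genes gave 33 of 43 at least 2-fold lower, none higher and a median log2 ratio of -2.04. SPC25, a subunit of the NDC80 complex that holds microtubules, had a signal of 1407 in growing cells, 117 in RS and 109 in OIS (12-fold lower in RS). Its partners in that complex followed, with NDC80 at 2812 in growing cells against 379.9 in RS (7.40-fold lower), NUF2 5.76-fold lower and SPC24 4.67-fold lower. All 4 subunits of this complex were lower by more than 4-fold. CENPF, a kinetochore protein of G2 and mitosis, had 2717 in growing cells against 279.7 in RS (9.71-fold lower). BUB1B, which encodes the checkpoint protein BubR1, was 9.70-fold lower. CENPA, the histone variant that marks centromeres, was 6.91-fold lower and its chaperone HJURP 7.02-fold lower. Other parts of the kinetochore were less changed in size. BUB3, a checkpoint protein, had 11843 in growing cells against 8082 in RS (1.47-fold lower). MIS12 of the MIS12 complex was 1.55-fold lower and the centromere protein CENPT was 1.68-fold higher, where both signals were low.

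The motors and builders of the spindle had a median log2 ratio of -2.56, with 23 of 27 at least 2-fold lower. KIF20A, the kinesin that carries the passenger complex to the midzone, had 3239.5 in growing cells, 208 in RS and 411 in OIS (15.6-fold lower in RS). DLGAP5, a stabilizer of kinetochore fibres, had 4919 in growing cells against 443 in RS (11.1-fold lower). GAS2L3, a linker of actin and microtubules, was 10.2-fold lower. KIFC1, a minus-end kinesin, had 667 in growing cells against 24.4 in RS (at least 14.7-fold lower), since its RS signal lay under the floor. KPNA2, an importin alpha that binds spindle factors, differed least among the lower members, at 18584 in growing cells against 12852 in RS (1.45-fold lower). Of 16 measured cytokinesis genes 14 were at least 2-fold lower, with a median of -2.21. ANLN, the anillin of the contractile ring, had 12060.5 in growing cells against 2669 in RS (4.52-fold lower). The midzone bundler PRC1 was 6.36-fold lower.

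The anaphase-promoting complex, the ubiquitin ligase that ends mitosis, showed a split between its own subunits and the genes around it. Its activator CDC20 had 2739 in growing cells against 401 in RS (6.82-fold lower). Its ubiquitin-conjugating enzyme UBE2C was 6.14-fold lower and its inhibitor FBXO5 was 5.59-fold lower. Securin (PTTG1) and geminin (GMNN), which it destroys, were 3.69-fold lower and 4.03-fold lower. Together with UBE2S at 2.32-fold, these were the 6 of 20 listed genes at least 2-fold lower. The subunit with the largest difference, CDC23, had 1754 in growing cells against 1186 in RS (1.48-fold lower). The scaffold subunit ANAPC2 was 1.04-fold higher. The list median was -0.13.

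A split was also seen among the rings that fold and hold chromosomes. Of 20 condensin and cohesin genes 8 were at least 2-fold lower, and the median was -0.77. The subunits particular to condensin I were low, with NCAPH at 710.2 in growing cells against 78.8 in RS (9.01-fold lower). NCAPG was 6.76-fold lower and NCAPD2 5.10-fold lower. Those of condensin II were unequal, with NCAPG2 4.56-fold lower, NCAPD3 1.53-fold lower and NCAPH2 1.47-fold lower. The cohesin core subunit RAD21 had 10407 in growing cells against 5987 in RS (1.74-fold lower). Its loader NIPBL was 1.24-fold lower. CDCA5, the sororin that protects cohesion through G2, was 3.59-fold lower.

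Genes of DNA replication were lower too, by a smaller amount on the median. In the list of origin licensing and the MCM helicase 24 of 30 were at least 2-fold lower, with a median log2 ratio of -1.76. MCM2, a subunit of the replicative helicase, had 1384 in growing cells, 275 in RS and 241 in OIS (5.04-fold lower in RS). The other MCM2 to MCM7 subunits were 2.71-fold to 3.92-fold lower, with MCM3 nearest to growing cells and MCM7 farthest. CDC45, which joins the helicase at firing, had 555 in growing cells against 59.0 in RS (9.41-fold lower). The licensing factor CDT1 was 6.28-fold lower, with a log2 ratio of -0.76 by another probe set. Within the origin recognition complex ORC1, the subunit made in G1, had 239 in growing cells against 37.5 in RS (at least 5.24-fold lower). By contrast ORC2 was 1.16-fold lower and ORC4 was 1.30-fold lower.

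At the fork itself 25 of 39 genes were at least 2-fold lower, and the median was -1.33. TOP2A, the topoisomerase that untangles sister chromatids, had 7406.5 in growing cells against 1163 in RS (6.37-fold lower), and its other probe sets gave log2 ratios of -2.80 and -0.40. POLE2, a subunit of DNA polymerase epsilon, had 1189 in growing cells against 219 in RS (5.44-fold lower). PRIM1, the primase, was 4.44-fold lower, while the sliding clamp PCNA was 2.39-fold lower. The maintenance methyltransferase partner UHRF1 was 4.12-fold lower and DNMT1, the methyltransferase, 1.80-fold lower. Of 13 genes of deoxynucleotide supply 5 were at least 2-fold lower. Thymidylate synthase (TYMS) had 11694 in growing cells against 2758 in RS (4.24-fold lower). The ribonucleotide reductase subunit RRM2 was 4.08-fold lower, whereas the alternative subunit RRM2B was 1.44-fold higher and the CTP synthase CTPS1 was 1.95-fold higher. Homologous recombination and Fanconi genes gave 19 of 31 at least 2-fold lower and a median of -1.11. The polymerase POLQ had 737 in growing cells against 125 in RS (5.91-fold lower). The recombination partner MND1 was 5.89-fold lower and BRCA1 was 3.14-fold lower, and the damage kinases ATM and ATR were 1.21-fold lower and 1.03-fold lower.

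Of the 24 regulators of these programmes 7 were at least 2-fold lower, with a median of -0.37. Those low in RS included regulators that are themselves made in cycling cells. E2F8 had 519 in growing cells against 70.9 in RS (7.32-fold lower). MYBL2 (B-Myb) was 5.49-fold lower and FOXM1, the activator of G2 genes, was 5.30-fold lower. The pocket protein RBL1 (p107) was 3.81-fold lower, whereas RB1 had 3606 in growing cells against 3035 in RS (1.19-fold lower). RBL2 (p130) was 1.04-fold lower. MuvB subunits were mixed, with LIN9 2.84-fold lower and LIN37 1.44-fold higher. MKI67, the Ki-67 proliferation marker, had 815 in growing cells against 194 in RS (4.21-fold lower). In all 280 measured genes stood in the 11 division lists, and 180 of them were at least 2-fold lower, 0 were at least 2-fold higher and 21 had a ratio above 0.

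**Figure D2:**
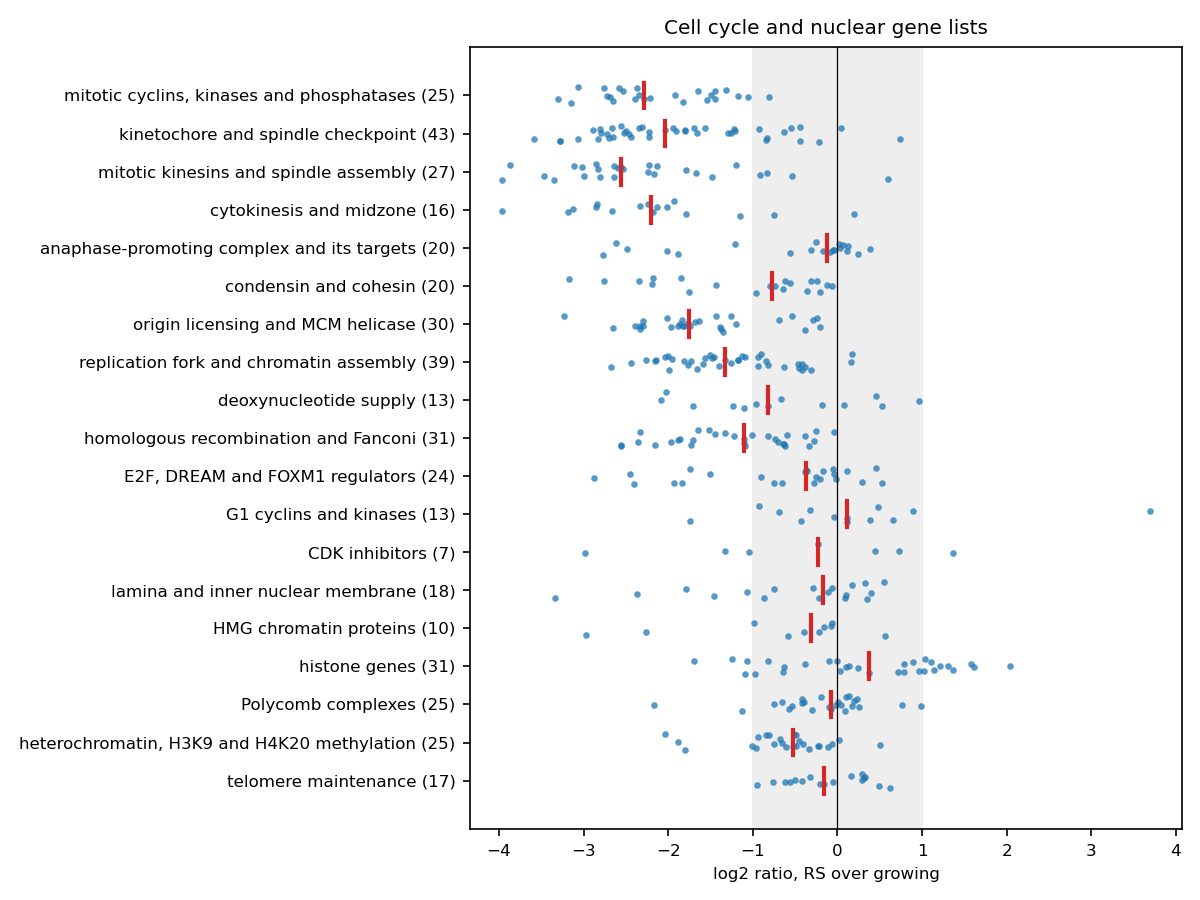
Log2 ratio of RS over growing cells (horizontal) for each measured gene of 19 lists (number of genes in parentheses). Each point is 1 gene, the red bar is the list median and the grey band covers differences under 2-fold. The mitosis lists have medians between -2.56 and -2.04, whereas those of the anaphase-promoting complex, lamina and telomere genes lie between -0.17 and -0.13.

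The promoters of the division genes were read from RefSeq (GRCh38.p14) to set the mitotic genes, which had the lowest ratios, beside the replication genes. The cell cycle genes homology region, or CHR (searched as TTTGAA or TTTAAA), is bound by the MuvB core, the CCAAT box (CCAAT) by NF-Y, and the E2F site (TTCGCGC and its variants TTGGCGC and, in addition, TTCCCGC) by E2F factors. Both strands were searched, so that ATTGG is a CCAAT box on the opposite strand. As examples, 4 mitotic genes and 2 replication genes were picked without a set rule, and shares over whole lists are given further below. The 150 bases before their starts are shown 5′ to 3′ in the direction of the gene, with matches of these motifs in capitals. They lie at chr5:138178962-138179111 (+) for KIF20A, chr2:168890431-168890580 (-) for SPC25, chr5:69167000-69167149 (+) for CCNB1, chr1:43358831-43358980 (+) for CDC20, chr2:135876444-135876593 (-) for MCM6 and chr16:88803639-88803788 (+) for CDT1.
KIF20A: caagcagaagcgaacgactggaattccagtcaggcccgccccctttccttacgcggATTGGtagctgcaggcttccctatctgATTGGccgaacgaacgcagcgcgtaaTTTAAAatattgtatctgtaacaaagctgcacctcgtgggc
SPC25: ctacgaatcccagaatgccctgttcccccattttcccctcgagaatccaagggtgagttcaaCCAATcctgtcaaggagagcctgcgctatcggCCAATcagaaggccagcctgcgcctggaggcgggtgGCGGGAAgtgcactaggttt
CCNB1: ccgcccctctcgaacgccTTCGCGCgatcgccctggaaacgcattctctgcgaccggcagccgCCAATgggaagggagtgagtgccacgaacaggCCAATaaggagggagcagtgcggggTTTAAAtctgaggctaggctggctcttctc
CDC20: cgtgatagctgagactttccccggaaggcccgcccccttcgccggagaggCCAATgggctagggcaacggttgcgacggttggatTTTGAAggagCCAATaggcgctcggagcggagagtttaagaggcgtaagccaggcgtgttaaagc
MCM6: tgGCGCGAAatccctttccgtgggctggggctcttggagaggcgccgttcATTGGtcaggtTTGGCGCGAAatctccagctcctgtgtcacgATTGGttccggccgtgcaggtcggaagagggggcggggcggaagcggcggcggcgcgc
CDT1: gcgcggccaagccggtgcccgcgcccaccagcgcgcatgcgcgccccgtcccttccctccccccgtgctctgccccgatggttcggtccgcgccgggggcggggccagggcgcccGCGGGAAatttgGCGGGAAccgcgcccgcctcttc

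KIF20A, CCNB1 and CDC20 had a CHR and a pair of CCAAT boxes in this stretch, and SPC25 had a pair of CCAAT boxes and an E2F site. The starts of the paired boxes were 32 bases apart in both CCNB1 and SPC25, 27 in KIF20A, 45 in CDC20 and 42 in MCM6. The CHR began 41 bases before the start in KIF20A, 30 in CCNB1 and 65 in CDC20. The replication genes MCM6 and CDT1 had E2F sites and no CHR letters in this window. In MCM6, E2F matches on both strands overlap within 1 run of capitals. CDT1 held E2F letters alone.

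These features were counted over the 250 bases before each RefSeq start, where a gene can have several starts. Of the 104 measured genes in the lists of mitotic kinases, kinetochores, kinesins and cytokinesis, 85 matched the promoter table with 102 windows. A CHR was in 46.1% of these windows, against 16.2% of the 15330 windows of all measured genes and 21.9% of all 35116 windows in the table. A CCAAT box was in 65.7%, against 32.8% and 32.0%. In the 95 windows of the 3 replication lists a CHR was in 11.6%, a CCAAT box in 49.5% and an E2F site in 35.8%, the last against 13.4% of windows of all measured genes and 9.32% of the table. The E2F site was not particular to replication genes. It was in 23.5% of the 102 mitosis windows and in 40.9% of the 22 windows of condensin and cohesin genes. The cytokinesis list had the highest share with a CHR, 12 of 15 windows. A CHR together with a CCAAT box was in 26.3% of the 190 windows of division genes at least 2-fold lower and in 5.19% of the 135 windows of the other division genes. These sets also differ in the lists they come from. Over all genes at least 2-fold lower the share was 13.4% of 830 windows. It was 6.96% of 618 windows for genes at least 2-fold higher and 5.88% for all measured genes. Such matches describe the letters and not binding.

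**Figure D3:**
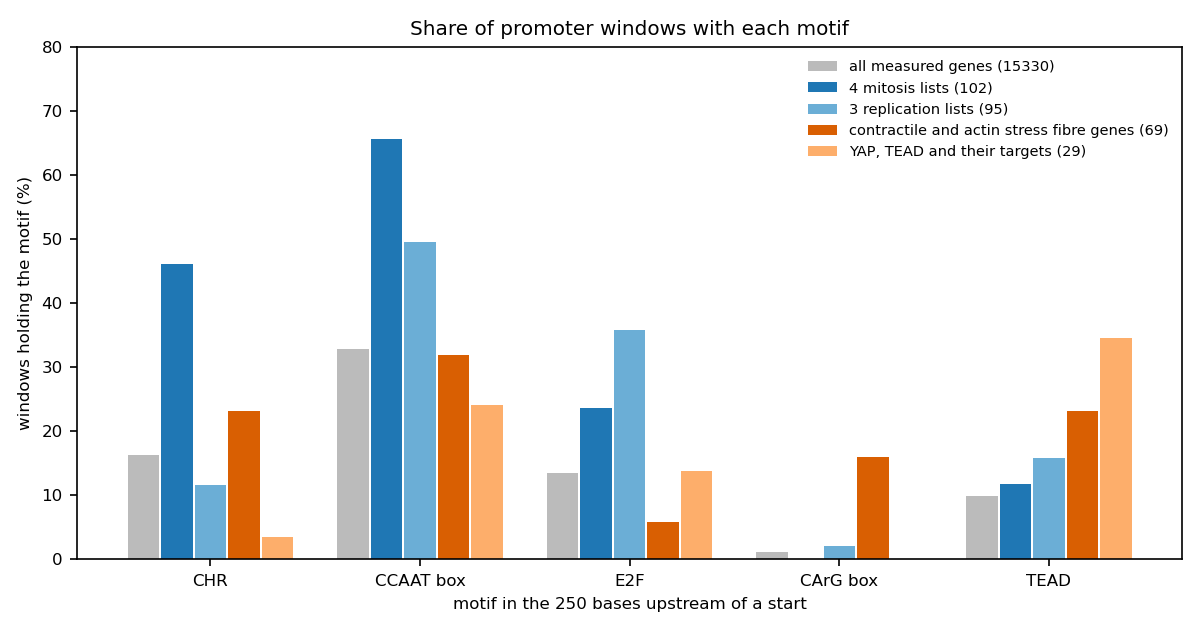
Share of promoter windows (%) that hold each motif in the 250 bases upstream of a RefSeq start, on either strand. Bars stand for gene sets with their number of windows in parentheses. The CHR bar is highest for the mitosis lists at 46.1%, the E2F bar for the replication lists at 35.8%, and the CArG box bar for contractile genes at 15.9%.

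The brakes of the G1 phase gave a mixed picture in RS. CDKN2A, the locus of p16 and ARF, had 432.5 in growing cells, 1115 in RS and 1040 in OIS (2.58-fold higher in RS), and its other probe set had a log2 ratio of 0.91. CDKN2B, which encodes p15, had 743 in growing cells, 1230 in RS and 7373 in OIS (1.66-fold higher in RS). CDKN1A, which encodes p21, had 6064 in growing cells, 8247 in RS and 15759.9 in OIS (1.36-fold higher in RS). The CDKN2A signal in RS was close to that in OIS, and those of CDKN2B and CDKN1A lay between growing cells and OIS. CDKN1B (p27) went the other way, at 3679 in growing cells against 1462 in RS (2.52-fold lower). CDKN1C (p57) was 2.07-fold lower and CDKN2D (p19) was 1.17-fold lower. CDKN3, a phosphatase that is made in mitosis, had 3952 in growing cells against 498 in RS (7.93-fold lower).

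Cyclin D2 (CCND2), an activator of CDK4 and CDK6, had the largest difference of the G1 cyclins, with 414.5 in growing cells, 5349 in RS and 752 in OIS (12.9-fold higher in RS). Its other probe sets gave log2 ratios from 1.06 to 2.42. CCND1 had 12616 in growing cells against 23467 in RS (1.86-fold higher). CCND3 was 1.58-fold higher, so all 3 D-type cyclins were above growing cells. The kinases CDK4 and CDK6 were 1.61-fold lower and 1.39-fold higher. Cyclin E2 (CCNE2) was 3.36-fold lower and CCNE1 1.08-fold higher. GDF15, a stress-induced hormone, had 1643 in growing cells, 1748.5 in RS and 22452.5 in OIS (1.06-fold higher in RS).

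In the nucleus, lamin B1 and its neighbours stood apart from the other lamina genes in size. LMNB1 had 4163 in growing cells, 410.5 in RS and 450.2 in OIS (10.1-fold lower in RS). TMPO, which encodes the lamin-binding LAP2 proteins, had 3822 in growing cells against 739 in RS (5.17-fold lower). The lamin B receptor LBR was 3.45-fold lower. LMNB2 was 2.10-fold lower, whereas LMNA, the gene of lamins A and C, had 6722.5 in growing cells against 7597 in RS (1.13-fold higher). The bridge protein SUN1 was 1.17-fold lower. These were, with SYNE2 at 2.75-fold, the 5 of 18 lamina genes at least 2-fold lower. Among 10 HMG chromatin proteins HMGB2 had 15068 in growing cells against 1925 in RS (7.83-fold lower). HMGB3 was 4.80-fold lower, whereas HMGB1 was 1.51-fold lower and HMGA2, found in senescent heterochromatin foci, was 1.48-fold higher. HMGN2 was 1.98-fold lower and the remaining HMGN members and HMGA1 were 1.05-fold to 1.32-fold lower.

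Histone genes differed by kind. In the histone clusters 10 of 23 measured genes passed 2-fold on the higher side and none on the lower, with a median log2 ratio of 0.89, and of 8 variant genes 4 passed 2-fold, all on the lower side, and their median was -0.95. In the clusters H4C8 had 176.5 in growing cells against 727 in RS (4.12-fold higher). H2BC4 was 3.06-fold higher, H2AC6 was 2.98-fold higher and H2BC21 was 2.57-fold higher. These genes are nearly alike in sequence, so that their probe sets may read each other. Of 34 clustered genes with a probe set, 11 were below the floor on both arrays, and 15 more had no probe set naming them alone. The variant H2AX, the histone phosphorylated at DNA breaks, had 4845 in growing cells against 1498 in RS (3.23-fold lower). MACROH2A2 was 2.37-fold lower and H2AZ1 was 2.12-fold lower. H2AJ, a variant described in senescent fibroblasts, had 2464 in growing cells against 4034 in RS (1.64-fold higher).

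The writers of silent chromatin were also unequal. EZH2, the H3K27 methyltransferase, had 1151 in growing cells, 256 in RS and 328 in OIS (4.49-fold lower in RS), while its partners SUZ12 and EED were 1.46-fold lower and 1.32-fold lower. The alternative subunit EZH1 had 362 in growing cells against 612 in RS (1.69-fold higher). CBX7, a Polycomb reader that acts on the p16 locus, was 1.97-fold higher. In the Polycomb list 2 of 25 genes (8%) passed 2-fold, both on the lower side, near the 5.79% of all measured genes. In the list of heterochromatin and H3K9 or H4K20 methylation 23 of 25 genes had a ratio below 0 and 4 were at least 2-fold lower, with a median of -0.52. NSD2, an H3K36 methyltransferase, had 1863 in growing cells against 504 in RS (3.70-fold lower). The H4K20 monomethyltransferase KMT5A was 1.61-fold lower. The heterochromatin protein CBX5 was 1.68-fold lower, and SUV39H1 1.41-fold lower. Telomere genes gave none of 17 past 2-fold. POT1, which caps the single strand, had 1104 in growing cells against 651 in RS (1.70-fold lower). TERF2IP (RAP1) was 1.54-fold higher, and TERT was below the floor on all 3 arrays.

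In the inflammatory arm of the secretome about as many genes were higher in RS as lower. Among 26 measured cytokines and chemokines 3 passed 2-fold on the higher side and 4 on the lower, and the median log2 ratio was 0.01. CXCL12, a stromal chemokine, had 547 in growing cells, 1479 in RS and 16.2 in OIS (2.70-fold higher in RS), although another probe set gave a log2 ratio of 0.36. The neutrophil chemokine CXCL8 had 1779.7 in growing cells, 4185.5 in RS and 30857 in OIS (2.35-fold higher in RS), and IL18 was at least 2.31-fold higher. IL6, the secretome's best-known cytokine, had 753 in growing cells, 1193 in RS and 14925 in OIS (1.59-fold higher in RS). IL1B and IL1A, the founding interleukins of the IL1 family, were low in RS and high in OIS. IL1B had 269 in growing cells, 57.6 in RS and 20515 in OIS (4.68-fold lower in RS). IL1A had 89.7 in growing cells, 41.9 in RS and 10735 in OIS (at least 1.97-fold lower in RS). TSLP, an alarmin of barrier tissues, had 1636 in growing cells against 298.5 in RS (5.48-fold lower). IL32 was 3.72-fold lower. The chemokine CXCL5 had 121 in growing cells against 46.4 in RS (2.60-fold lower).

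Genes downstream of NF-kappaB were close to the background on the higher side, where 1 of 22 passed 2-fold, with 4 on the lower side and a median log2 ratio of -0.12. TNFAIP6, a hyaluronan-binding protein induced by inflammatory cytokines, had 729.8 in growing cells, 83.4 in RS and 1964 in OIS (8.75-fold lower in RS). The adhesion molecule VCAM1 had 2230 in growing cells against 983 in RS (2.27-fold lower). TNFAIP8 was 2.49-fold lower and TNFAIP2 was 2.16-fold lower. NFKBIZ, a nuclear co-activator, had 779.9 in growing cells against 2127.5 in RS (2.73-fold higher). NFKBIA, the first inhibitor that NF-kappaB induces, was 1.63-fold lower. Interferon-stimulated genes are induced by the antiviral cytokines. Of 40 measured 4 were at least 2-fold higher, none were lower, and the median was 0.24. IFI27 had 92.3 in growing cells against 450.5 in RS (4.88-fold higher). MX1 was at least 4.61-fold higher, IFI6 was 3.27-fold higher and ISG15 was 2.29-fold higher. At the other end IFIT2 had 427 in growing cells against 237 in RS (1.80-fold lower). IFI35 was 1.71-fold lower and the double-stranded RNA sensor IFIH1 was 1.29-fold lower.

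Among secreted proteases and their inhibitors 5 of 26 (19.2%) were at least 2-fold higher and 3 (11.5%) lower, beside 3.86% and 5.79% over all measured genes. Of the plasminogen system the tissue activator PLAT had 5259 in growing cells against 11199 in RS (2.13-fold higher). The urokinase receptor PLAUR was 2.30-fold higher and the inhibitor SERPINE2 was 2.60-fold higher. TIMP3, a matrix-bound metalloproteinase inhibitor, had 4769 in growing cells against 12505 in RS (2.62-fold higher). The aggrecanase ADAMTS5 was 3.08-fold higher. The interstitial collagenase MMP1 had 17604 in growing cells, 4444 in RS and 33064 in OIS (3.96-fold lower in RS). MMP3 had 1417 in growing cells, 1322 in RS and 20539 in OIS (1.07-fold lower in RS). MMP10 was at least 1.93-fold lower and ADAMTS6 2.85-fold lower.

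Among growth factors 8 of 35 (22.9%) passed 2-fold on the higher side and 4 (11.4%) on the lower. Over all measured genes the shares were 3.86% and 5.79%. ANGPTL4, an inhibitor of lipoprotein lipase, had 115 in growing cells, 808 in RS and 1117 in OIS (7.04-fold higher in RS). The EGF-family ligand NRG1 was 4.67-fold higher, PDGFB was 4.32-fold higher and TGFB2 was 3.30-fold higher. The other probe sets of NRG1 gave log2 ratios from 0.49 to 2.02. Endothelin-1 (EDN1), a vasoconstrictor peptide and among the 15 genes with the highest ratio, had 385 in growing cells against 2572 in RS (6.67-fold higher). Of the lower members MDK (midkine) had 683.5 in growing cells against 201 in RS (3.41-fold lower). PDGFD was 3.07-fold lower and GDF5 was 2.54-fold lower. PTN (pleiotrophin) had 7658 in growing cells against 3531 in RS (2.17-fold lower), but its other probe sets gave log2 ratios from -1.23 to 0.10. Among IGF-binding proteins IGFBP3 had 9989.8 in growing cells against 22949.6 in RS (2.30-fold higher). IGFBP2 was 3.10-fold lower, IGFBP5 was 1.01-fold lower and IGFBP7 was 1.23-fold higher.

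**Figure D4:**
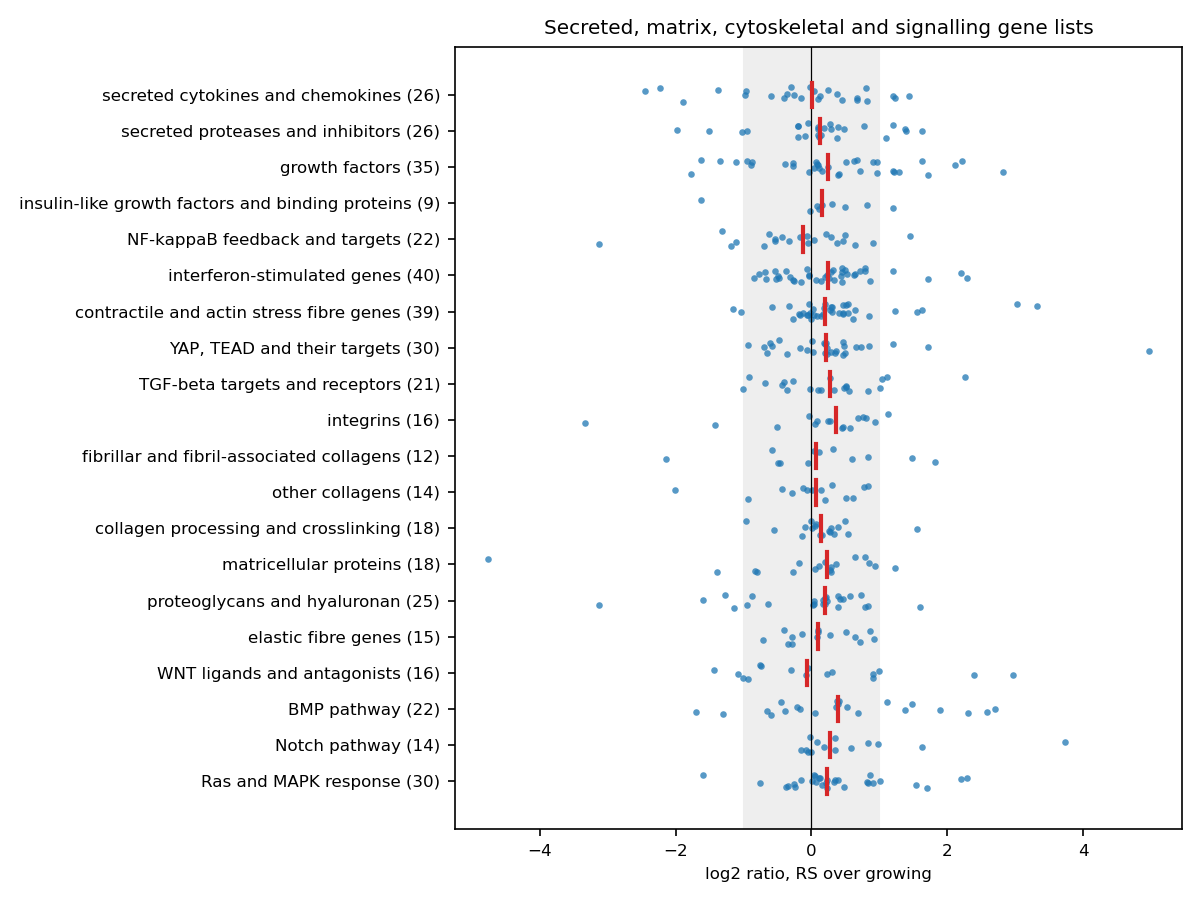
Log2 ratio of RS over growing cells (horizontal) for each measured gene of 20 secreted, matrix, cytoskeletal and signalling lists (number of genes in parentheses). Each point is 1 gene, the red bar is the list median and the grey band covers differences under 2-fold. All medians lie between -0.12 and 0.38, and single genes such as ANKRD1 at 4.97 and POSTN at -4.76 lie far from them.

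Single muscle and stress-fibre genes were among the highest of all ratios, while most of their list was little changed in size. ACTC1, cardiac alpha actin, had 64.1 in growing cells, 640.5 in RS and 60.4 in OIS (9.99-fold higher in RS). SYNPO2, an actin bundler of muscle Z-discs, had 207 in growing cells, 1686 in RS and 86.8 in OIS (8.14-fold higher in RS), and its 4 other probe sets gave log2 ratios from 1.5 to 3.11. In both genes the RS signal stood above those of both other arrays. LDB3, a Z-disc adaptor, had 59.3 in growing cells against 183 in RS (3.08-fold higher). The actin nucleator LMOD1 was 2.94-fold higher. Calponin (CNN1) had 2442 in growing cells, 5749.6 in RS and 1084 in OIS (2.35-fold higher in RS). Smooth muscle actin (ACTA2) had 15226 in growing cells against 27518.5 in RS (1.81-fold higher). Transgelin (TAGLN) was 1.55-fold higher. In all 5 of 39 contractile genes were at least 2-fold higher and 2 lower, with a median log2 ratio of 0.20 and 26 of them above 0, against 48.8% of all measured genes. Of the lower genes the nonmuscle myosin MYH10 had 5512.5 in growing cells against 2463 in RS (2.24-fold lower). The SRF co-activator MRTFB was 2.05-fold lower. SRF itself had 417 in growing cells against 573 in RS (1.37-fold higher).

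Some markers of smooth muscle were higher in RS as well, and most members of their list also stand in the contractile list. Of 13 measured smooth muscle and myofibroblast markers 5 passed 2-fold, all on the higher side, and the summed signal of the list was 54513.9 in growing cells, 90843.1 in RS and 39851.1 in OIS. The 4 measured members outside the contractile list had a summed signal of 2761 in growing cells, 5264.4 in RS and 3907.1 in OIS. Of them 2 were at least 2-fold higher in RS and 0 lower. RGS5 had 309 in growing cells against 1006 in RS (3.26-fold higher). MCAM was 2.13-fold higher and CSPG4 was 1.41-fold lower. KCNMB1 was below the floor on all 3 arrays, and MYH11 and MYOCD, which define mature smooth muscle, had no higher signal in RS, at 59.0 and 514 in growing cells and 54.0 and 342 in RS. Of 19 skeletal and cardiac muscle markers 14 were below the floor on all 3 arrays, including MYOD1, MYOG, CKM and ACTN2. The summed signal of that list was 349 in growing cells and 448 in RS. The part of such cells in the result was not tested.

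ANKRD1 encodes a muscle ankyrin-repeat protein that responds to stretch and is a target of YAP and TEAD. It had 55.1 in growing cells, 1726 in RS and 72.0 in OIS (31.3-fold higher in RS). The growing signal was close to the floor of 45.5, so this fold is uncertain in size. The other YAP targets were closer to growing cells. CCN2 had 14339 in growing cells against 25695 in RS (1.79-fold higher). CCN1 was 1.15-fold higher, THBS1 was 1.28-fold higher and AMOTL2 was 1.02-fold higher. Of 30 genes on this list 3 were at least 2-fold higher, ANKRD1, TGFB2 and IGFBP3, and none lower, and YAP1 itself had 11269.7 in growing cells against 10075 in RS (1.12-fold lower). The promoters of ACTC1 and ANKRD1 were picked for display because each holds a motif named below. Here too matches describe the letters and not binding, and regulation of either gene was not tested. Capitals mark the CArG box, which SRF binds, and the TATA box (TATAAA) in ACTC1, and the TEAD or MCAT motif (CATTCC, here as GGAATG on the opposite strand) in ANKRD1. The stretches, from RefSeq GRCh38.p14, lie at chr15:34795550-34795699 (-) for ACTC1, the first of its 3 listed starts, and chr10:90921088-90921237 (-) for ANKRD1.
ACTC1: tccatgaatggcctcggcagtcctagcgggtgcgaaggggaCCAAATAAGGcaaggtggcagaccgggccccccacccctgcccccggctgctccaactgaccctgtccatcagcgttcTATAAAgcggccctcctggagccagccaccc
ANKRD1: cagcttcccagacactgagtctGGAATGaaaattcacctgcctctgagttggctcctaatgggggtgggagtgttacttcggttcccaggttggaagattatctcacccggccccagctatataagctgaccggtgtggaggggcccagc

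A CArG box was in 15.9% of the 69 windows of contractile genes, against 1.11% of windows of all measured genes and 1.16% of the table. The TEAD motif was in 34.5% of the 29 windows of the YAP and TEAD list and 23.2% of the contractile windows, against 9.92% of windows of all measured genes and 11.9% of the table. Among genes at least 2-fold higher in RS the shares were 1.62% for the CArG box and 13.4% for the TEAD motif, over 618 windows. CAVIN4, a muscle protein of caveolae, was another of the 15 highest ratios, with 229 in growing cells against 1522 in RS (6.65-fold higher).

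Matrix genes were level in bulk and very unequal in detail. COL1A2 had 27180.1 in growing cells against 26109 in RS (1.04-fold lower). FN1 (fibronectin) was 1.03-fold higher and COL3A1 was 1.41-fold lower. Against these, POSTN, the periostin of wound and tumour stroma, had 11197 in growing cells, 412 in RS and 24523.5 in OIS (27.2-fold lower in RS), the lowest ratio of genes above the floor on both arrays. Its other probe sets gave log2 ratios of -5.65 and -0.27, so they disagreed in size. COL15A1, a basement membrane collagen, had 4304 in growing cells against 1073.5 in RS (4.01-fold lower). COL5A3 was 4.42-fold lower. COL11A1, a cartilage collagen, had 597 in growing cells against 2109.9 in RS (3.53-fold higher). COL24A1 was 2.79-fold higher. The transglutaminase TGM2, which crosslinks matrix, had 1143 in growing cells against 3339 in RS (2.92-fold higher), and it was the 1 of 18 processing genes past 2-fold. CEMIP, which degrades hyaluronan, had 5210.5 in growing cells against 1724 in RS (3.02-fold lower). The hyaluronan synthase HAS2 was 1.92-fold lower. Among proteoglycans lumican (LUM) had 13729 in growing cells against 23798 in RS (1.73-fold higher). Decorin (DCN) was 1.14-fold higher and biglycan (BGN) was 2.20-fold lower. None of 15 elastic fibre genes passed 2-fold, and EFEMP1 had the highest ratio there, with 4078.5 in growing cells against 7751 in RS (1.90-fold higher).

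Of 16 integrin genes 1 was at least 2-fold higher and 2 lower. ITGB8, the beta chain of an integrin that activates latent TGF-beta, had 808 in growing cells, 80.3 in RS and 2207 in OIS (10.1-fold lower in RS). ITGA7, a laminin receptor of muscle, had 139 in growing cells against 52.0 in RS (2.68-fold lower). ITGB5, a vitronectin receptor, was 2.19-fold higher. The collagen receptor subunit ITGA2 had 9047 in growing cells against 14475 in RS (1.60-fold higher), and 12 of the 16 integrins had a ratio above 0.

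The BMP pathway had the most members past 2-fold on the higher side among the signalling lists. BMPs are ligands that act through SMAD1, SMAD5 and SMAD9, and the ID genes, inhibitors of basic helix-loop-helix factors, are their best-known targets. ID1 had 1649.8 in growing cells, 9884 in RS and 1764 in OIS (5.99-fold higher in RS). ID3 had 1492.5 in growing cells, 5529.8 in RS and 1778 in OIS (3.71-fold higher in RS). ID2 had 2546 in growing cells, 7137 in RS and 1034 in OIS (2.80-fold higher in RS). ID4 had 82.0 in growing cells, 406 in RS and 64.0 in OIS (4.95-fold higher in RS). The other probe sets of ID4 gave log2 ratios of 0.80 and 0.84. For all 4 genes the RS signal was above those of both other arrays. Of the ligands BMP4 had 407 in growing cells, 166 in RS and 910 in OIS (2.46-fold lower in RS). BMP2 had 1034.5 in growing cells, 1371 in RS and 17049 in OIS (1.33-fold higher in RS). The secreted antagonist noggin (NOG) had 689.6 in growing cells, 4506 in RS and 135 in OIS (6.53-fold higher in RS), whereas the antagonists GREM1 and FST (follistatin) were 1.52-fold lower and 1.57-fold lower. The transducer SMAD1 had 2129.9 in growing cells, 656 in RS and 6165 in OIS (3.25-fold lower in RS). SMAD5 was 1.37-fold lower and SMAD9 was 1.28-fold higher. Of the inhibitory SMADs, which dampen the pathway, SMAD6 had 222 in growing cells against 481 in RS (2.17-fold higher). SMAD7 had 348 in growing cells, 1662 in RS and 915 in OIS (4.77-fold higher in RS). In all 7 of 22 genes were at least 2-fold higher and 2 lower, with a median of 0.38, beside 3.86% higher and 5.79% lower over all measured genes.

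**Figure D5:**
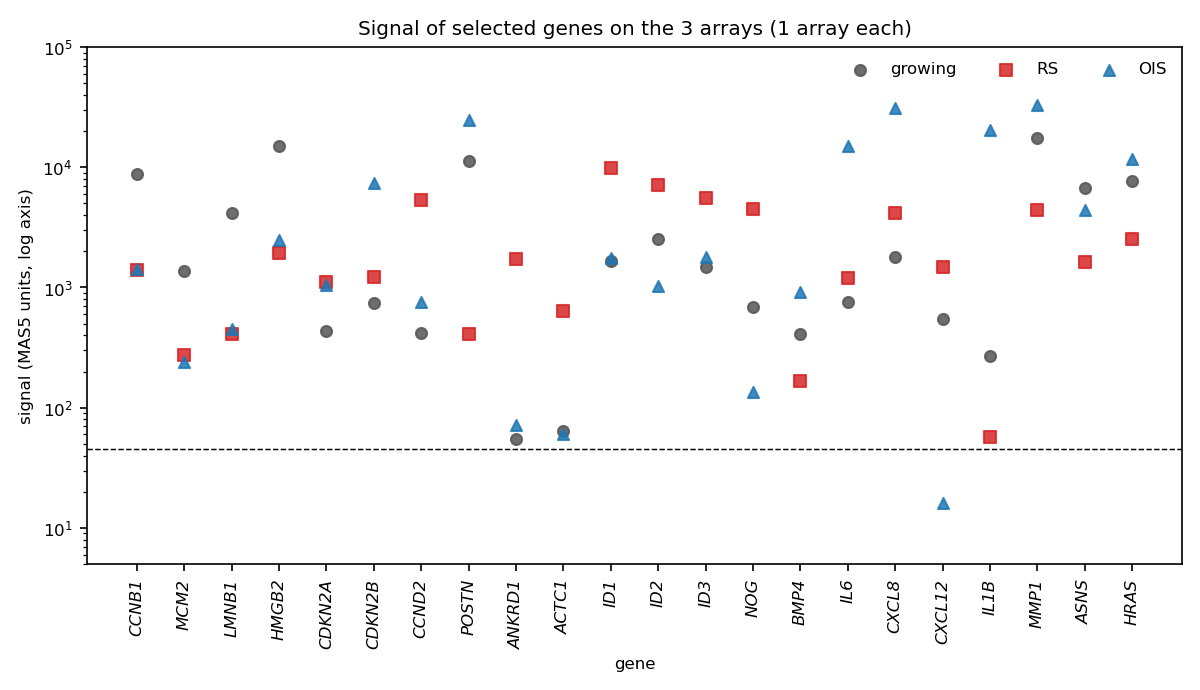
Signal (MAS5 units, log axis) of 22 selected genes on the growing, RS and OIS arrays, 1 array each, with the floor of 45.5 as a dashed line. CCNB1, MCM2, LMNB1 and HMGB2 are low in RS and OIS alike, ID1, ID3, CCND2, ANKRD1 and ACTC1 are high in RS and nearer to the growing array in OIS, and POSTN, IL1B, MMP1 and HRAS are below growing cells in RS and above them in OIS.

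TGF-beta genes outside this group were less far from growing cells. Of 21 listed genes 4 were at least 2-fold higher and 1 lower. Besides SMAD7 and SMAD6, the co-repressor SKIL had 2488 in growing cells against 5099.9 in RS (2.05-fold higher). BHLHE40 was 2.02-fold higher. SMAD3 had 2471 in growing cells against 1541.5 in RS (1.60-fold lower). The coreceptor TGFBR3 was 2.01-fold lower and the target TGFBI was 1.21-fold higher. Of 16 WNT genes 2 were at least 2-fold higher and 3 lower. DKK2, an antagonist at LRP receptors, had 66.9 in growing cells, 521 in RS and 959.6 in OIS (7.78-fold higher in RS). WNT16, a ligand described in senescent fibroblasts, had 765.5 in growing cells, 4026.5 in RS and 1028 in OIS (5.26-fold higher in RS). The other probe set of WNT16 gave a log2 ratio of 2.59. The transcription factor LEF1 had 182 in growing cells against 67.5 in RS (2.69-fold lower). The target AXIN2 was 1.70-fold lower. DKK1 had 4462 in growing cells against 8349 in RS (1.87-fold higher). Of 14 Notch genes DNER, a ligand-like membrane protein, had 83.9 in growing cells, 1112 in RS and 359.8 in OIS (13.2-fold higher in RS). The ligand DLL4 was at least 3.09-fold higher, and the target HEY1 was 1.77-fold higher.

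The response genes of the Ras and MAPK pathway passed 2-fold upward in 5 of 30 cases and downward in 1. These were 16.7% and 3.33%, beside 3.86% higher and 5.79% lower over all measured genes. The phosphatases DUSP4 and DUSP1, which switch MAP kinases off, were 4.87-fold higher and 3.24-fold higher. Sprouty proteins act against Ras signalling, and SPRY4 had 394 in growing cells against 1144 in RS (2.91-fold higher). SPRY2 was 2.02-fold higher, and EGR3, an early growth response factor, was at least 4.61-fold higher. The 1 lower gene was HRAS itself, with 7696 in growing cells, 2553 in RS and 11748 in OIS (3.01-fold lower in RS). A single probe set reads it, and whether that probe set also reads the ER:Ras transgene is not given in the sources used here.

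TMEM178B, a membrane protein of little-known function, had 56.3 in growing cells, 2193 in RS and 27.3 in OIS (38.9-fold higher in RS). Its growing signal was close to the floor of 45.5, and its other probe set gave a log2 ratio of 2.39. Several other genes with large differences in either direction are known from the nervous system. TENM1, a teneurin of synaptic adhesion, had 93.8 in growing cells, 1191 in RS and 87.7 in OIS (12.7-fold higher in RS). NPTX1, a neuronal pentraxin, had 7533 in growing cells against 662 in RS (11.4-fold lower). The axon guidance ligand SLIT2 was 4.70-fold lower. SOX11, a transcription factor of neural progenitors, had 1359.9 in growing cells against 43.3 in RS (at least 29.9-fold lower). The adhesion molecule L1CAM was at least 4.44-fold higher. NRXN3, a neurexin, had 404 in growing cells against 1003 in RS (2.48-fold higher). The netrin receptor UNC5B was 2.60-fold lower. In this list of neural adhesion of 37 genes as many passed 2-fold upward as downward, 6 each, and the median log2 ratio was -0.19. Of 13 neural markers 8 were below the floor on all 3 arrays, and the list's summed signal of 13668.6 in growing cells compared with 13583 in RS, nearly all of it TUBB3. The part of neural cells in the result was not tested.

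Of the 15 lowest ratios not yet named, TOX, an HMG-box factor of lymphocyte development, had 690.2 in growing cells against 65.9 in RS (10.5-fold lower), but its other probe set gave a log2 ratio of -0.10. DEPDC1B, a regulator of cell detachment at mitosis, was 9.13-fold lower. Of the 15 highest ratios, PODXL, a sialomucin of podocytes, had 144 in growing cells against 1285.5 in RS (8.95-fold higher). SCUBE3, a secreted ligand with EGF repeats, was 8.77-fold higher and the tetraspanin TSPAN10 was 6.90-fold higher. The other probe sets of SCUBE3 gave log2 ratios from 0.43 to 1.94. EHF, an ETS factor of epithelia, had the largest bound of the genes below the floor in growing cells, with 13.9 in growing cells, 597 in RS and 4156.5 in OIS (at least 13.1-fold higher in RS). ADIRF, an adipogenesis factor, had 22.3 in growing cells, 549 in RS and 20.2 in OIS (at least 12.1-fold higher in RS). The epithelial keratins KRT8 and KRT18 were 2.20-fold higher and 2.01-fold higher. Of 17 epithelial markers 8 were below the floor on all 3 arrays, including CDH1, KRT5 and ESRP1, and the list's summed signal of 3850.7 in growing cells compared with 6944 in RS. The part of epithelial cells in the result was not tested. Among genes at the floor in RS, after SOX11 and KIFC1, the glycosyltransferase B3GNT5 had 438 in growing cells against 1 in RS (at least 9.63-fold lower). The desmosomal cadherin DSG2 was at least 6.87-fold lower, where another probe set gave a log2 ratio of -0.40. The other 8 of the 10 largest bounds on the higher side belonged to PNMA2, DNAJC6, EFHD1, SPRY4-IT1, IL21R, CBLN2, ELMOD1 and NMNAT2 and ran from at least 4.90-fold to at least 10.6-fold. On the lower side TOX-DT, a transcript divergent to TOX, was at least 8.94-fold lower, TMEM119 at least 5.36-fold lower and ZNF711 at least 5.19-fold lower.

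Position and channel genes added single large differences. HOXB8 had 131 in growing cells against 744 in RS (5.69-fold higher). Of its neighbours in the cluster HOXB7 was 1.20-fold higher, HOXB6 1.91-fold higher and HOXB5 1.07-fold higher. The lung fibroblast factors FOXF1 and TBX5 were 1.08-fold higher and 1.03-fold higher. Of 33 ion channel and transporter genes 7 were at least 2-fold higher and 4 lower, with a median of 0.38. These were 21.2% and 12.1%, beside 3.86% and 5.79% over all measured genes. KCNQ5, a voltage-gated potassium channel, had 113 in growing cells, 689 in RS and 34.4 in OIS (6.09-fold higher in RS). The glutamate transporter SLC1A1 was 4.96-fold higher, with 0.24 on the log2 scale by its other probe set, and the inward rectifier KCNJ8 was at least 6.59-fold lower. Of the long noncoding RNAs MEG3, an imprinted transcript, had 509 in growing cells against 1730 in RS (3.40-fold higher). DLEU2, the host of the miR-15a and miR-16 cluster, was 5.74-fold lower. MALAT1 had 7092 in growing cells against 9343 in RS (1.32-fold higher). BCL2, the founding survival gene of its family, was at least 2.93-fold lower. MCL1 was 1.42-fold higher and BCL2L1 1.03-fold lower.

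Stress genes were mostly within 2-fold. In the unfolded protein response and ATF4 list 5 of 32 genes were at least 2-fold lower and 2 higher. Serine synthesis and amino acid genes controlled by ATF4 were low, with ASNS (asparagine synthetase) at 6732.5 in growing cells against 1628 in RS (4.13-fold lower). PHGDH, the first enzyme of serine synthesis, was 3.75-fold lower, PSAT1 was 2.76-fold lower and the cystine transporter SLC7A11 was 2.33-fold lower. ATF4 itself had 13809.9 in growing cells against 9837.5 in RS (1.40-fold lower). In the same list the chaperone HSPA5 (BiP) had 19813 in growing cells against 20323 in RS (1.03-fold higher), and the highest members were the sensor ERN1, 2.26-fold higher, and the chaperone DNAJB9, 2.10-fold higher. In the heat shock list 3 of 20 genes passed 2-fold, each on the higher side, and the median log2 ratio was 0.26. All 3 are small heat shock proteins. HSPB3 had 62.7 in growing cells against 311 in RS (4.95-fold higher). HSPB8 was 2.49-fold higher. CRYAB had 227.5 in growing cells, 506 in RS and 54.1 in OIS (2.23-fold higher in RS). Of the general chaperones HSP90AA1 was 1.17-fold higher and HSPD1 was 1.04-fold lower. Of 32 NRF2 and antioxidant genes 6 (18.75%) were at least 2-fold lower and 2 (6.25%) higher, beside 5.79% and 3.86% over all measured genes. NQO1, a quinone reductase, had 15100.3 in growing cells against 5821.5 in RS (2.59-fold lower). AKR1C2 was 2.66-fold lower and GPX7 was 2.80-fold lower, and the extracellular enzymes GPX3 and SOD3 were 3.74-fold higher and 2.85-fold higher.

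Lysosome genes had a median log2 ratio of 0.24 with 29 of 37 above 0, 4 at least 2-fold higher and 1 lower, and autophagy genes one of 0.24 with 19 of 28 above 0 and none past 2-fold. The cholesterol exporter NPC1 had 834 in growing cells against 1723.5 in RS (2.07-fold higher). The lysosome regulator TFEB was 2.02-fold higher and cathepsin H (CTSH) was 2.22-fold lower. MAP1LC3B, the LC3 of autophagosomes, had 4204 in growing cells against 7512 in RS (1.79-fold higher). GLB1, the source of senescence-associated beta-galactosidase, had no probe set that names it alone. In glycolysis hexokinase 2 (HK2) had 1199 in growing cells against 3650.2 in RS (3.04-fold higher). TXNIP, which restrains glucose uptake, was 2.58-fold higher and GAPDH was 1.07-fold higher. The respiratory chain had a median of 0.06, with 2 of 48 (4.17%) past 2-fold, both higher, near the 3.86% of all measured genes. They were COXFA4L3, a relative of a cytochrome c oxidase subunit, and the muscle form COX7A1, 3.54-fold higher. COXFA4L3 had 83.0 in growing cells, 678 in RS and 2319 in OIS (8.16-fold higher in RS). Ribosomal protein genes were level, with a median of 0.05 over 39 genes and none past 2-fold. Splicing factors of the SR and hnRNP families had 28 of 31 ratios below 0 and a median of -0.41, and the neural splicing repressor PTBP2 had 772 in growing cells against 329.7 in RS (2.34-fold lower).

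RS and OIS were set side by side for genes that passed 2-fold against growing cells in opposite directions. There were 57 such genes (0.439% of those measured), 31 higher in RS and lower in OIS and 26 lower in RS and higher in OIS, and the difference between the states was not tested. Both ratios share the growing array. Of the 9 measured pregnancy-specific glycoprotein genes 6 were of the first kind. PSG5 had 672 in growing cells, 2118 in RS and 173 in OIS (3.15-fold higher in RS). PSG4 had 1671 in growing cells, 4183 in RS and 813 in OIS (2.50-fold higher in RS). PSG9 had 664 in growing cells, 1818 in RS and 250 in OIS (2.74-fold higher in RS). The PSG genes are near-identical neighbours on chromosome 19 and their probe sets can cross-hybridize, so their values are uncertain as separate genes, and the other probe sets of PSG9 gave log2 ratios of -0.02 and 1.51. Of the second kind, COLEC12, a scavenger receptor, had 318.5 in growing cells, 94.8 in RS and 1719.5 in OIS (3.36-fold lower in RS). Another gene low in RS and in OIS alike was APOBEC3B, a DNA cytidine deaminase, with 3747 in growing cells, 429 in RS and 594 in OIS (8.73-fold lower in RS), and it was named after its values were seen.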

How the data were processed

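In all 3 samples, each from 1 condition of IMR-90 ER:Ras fibroblasts, total RNA was read on 1 Affymetrix array. The authors deposited linear signal intensity per probe set, made by the MAS5 algorithm, per the submitters' processing notes. The MAS5 version used is not given in the labels. MAS5 sets every array to 1 common mean, which removes any shift shared by all genes, and the 2% trimmed mean was 497 on each array. Intensities below 45.5 were raised to that value, and ratios of RS over growing cells were taken on the log2 scale with Python 3.11.15, pandas 2.3.3 and numpy 2.4.6 and drawn in matplotlib 3.10.9. Of 54613 probe sets, 41091 name 1 gene in the platform annotation, 1801 several and 11721 none, and 41037 were given a RefSeq gene ID. Each gene was read from the probe set with the highest mean log2 signal over the 3 arrays. Near-identical genes may share probes.

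Gene lists held 1633 genes in 63 lists, of which 1488 had a probe set and 1336 were measured. The members and lists were chosen with earlier results of these data known. Genes named are the 15 highest and 15 lowest ratios, the 10 largest bounds each way, a set of senescence genes, list members at the ends of each list or with a defining role, and genes opposite in OIS, apart from those not reported here. Some listed genes and 1 list are not reported here. With 1 array per condition no test was run, and p-values are absent. Motifs were searched in 250 bases before RefSeq starts. Alternatives were another floor, no floor filter, a pseudocount, centring, quantile scaling, a 3-fold threshold and other choices of probe set, and the steps were tested on simulated data.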

Additional observations from a re-analysis of the deposited data

Results flagged for a closer look

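In 21 genes that the lists hold, RS and OIS passed 2-fold against the shared growing array in opposite directions, and the difference between the states was not tested. On the lower side in RS and the higher in OIS, the log2 ratio of RS over growing cells was -4.76 for POSTN, -3.33 for ITGB8, -3.13 for TNFAIP6, -2.23 for IL1B, -2.14 for COL5A3 and -1.70 for SMAD1. It was -1.43 for LEF1, -1.39 for SPP1, which encodes osteopontin, -1.38 for CXCL5, -1.30 for BMP4, -1.15 for CTSH and -1.11 for TNFAIP2. The OIS ratios of the same genes ran from 1.10 for COL5A3 to 6.41 for CXCL5. On the higher side in RS and the lower in OIS, it was 3.02 for SYNPO2, 2.71 for NOG, 2.61 for KCNQ5, 1.62 for FGF1, a fibroblast growth factor, and 1.49 for ID2. CXCL12 had 1.44, NRXN3 1.31, CNN1 1.24 and CRYAB 1.15.

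Among 11721 probe sets that the annotation gives no gene, 3534 were above the floor on at least 1 of the growing and RS arrays. Of these 133 were at least 2-fold higher in RS and 109 at least 2-fold lower. Over the 12980 measured genes the counts were 501 (3.86%) and 751 (5.79%). None of the probe sets without a gene entered a comparison above.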

How the results depend on the processing

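No paired analysis was possible because each condition had 1 array. The count of genes at least 2-fold higher, 501, became 1317 with the floor at the 25th percentile (11.7), 322 with the median over all probe sets of a gene and 147 at 3-fold. The count lower, 751, became 1614 with the 25th-percentile floor and 317 at 3-fold. With the median over all probe sets of a gene, the median log2 ratio of mitotic cyclins and kinases was -1.78 in place of -2.28. That of origin licensing was -1.41 in place of -1.76. The BMP pathway median was 0.09 in place of 0.38 by that setting, and 0.20 without cross-hybridizing probe sets. Leaving out cross-hybridizing probe sets turned PTN from -1.12 to 0.10. Settings were compared over 389 genes past 2-fold, which were list members, the highest and lowest ratios, the largest bounds and the senescence genes. Not all of them are named above. Of the 389, 358 stayed past 2-fold with the floor at the 60th percentile (88.8) and 319 with the median over all probe sets. The number was 378 after quantile scaling, 386 after centring and 376 with a pseudocount of 16. The histone list median, 0.38, was 0.03 with the lower floor and 0.71 with the higher one. Of genes past 2-fold with another probe set, 93.8% of 565 had the same sign there and 51.3% also passed 2-fold. Signals near the floor limit ratios of dim genes such as CENPT and COL24A1. The same holds for the large folds of TMEM178B, ANKRD1, ACTC1 and DKK2. Their growing signals were 56.3, 55.1, 64.1 and 66.9, beside the floor of 45.5. No value of spread between cultures was available.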

Other observations

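The median log2 ratio by chromosome ran from -0.09 for the genes of chromosome 4 to 0.06 for those of chromosome 10 among the autosomes, and the share of measured genes at least 2-fold lower in RS ran from 3.81% on chromosome 22 to 11.1% on chromosome 4, beside 5.79% over all measured genes. On chromosome 4 the share at least 2-fold higher was 4.81%.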
